A study of Mus musculus with 26 samples.

Results

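The genes described are the autosomal Gata factor genes Gata2, Gata3, Gata4, Gata5 and Gata6, 5 of the 24963 autosomal genes with a curated RefSeq start site. For each gene and each of 12 deposited tables of regions, the region with most overlap with 1.5 kb either side of a start site was taken. This gave 53 of 60 possible gene and table pairs, and 18164 genes had such a region in at least 1 table. In ChIP-reChIP, chromatin recovered with an antibody to one histone mark is immunoprecipitated again with an antibody to another, so that fragments carrying both marks are enriched. Trimethylation of lysine 4 of histone H3 (H3K4me3) accompanies active promoters, and trimethylation of lysine 27 (H3K27me3) is the mark of Polycomb repression. K4-K27 denotes H3K4me3 followed by H3K27me3, and K27-K4 the reverse order. In-line totals are a portion of the chromatin set aside after the first immunoprecipitation, and IgG–IgG is the background reChIP. The study describes the in-line totals as noisier than the reChIPs and as made from less starting material.

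All cells were E14 mouse embryonic stem cells (ESCs), an established line, grown in serum and LIF, and chromatin was digested with MNase to mononucleosomes. The 9 E14 libraries came from non-clonal wild-type cells. Both totals and both reChIPs had 2 replicates, replicate 1 from sequencing batch A and replicate 2 from batch B, and IgG–IgG came from replicate 1 alone. The 17 clone libraries, all from batch C, came from wild-type clones 57 and 58 (WT) and from DPPA2/4 double knockout clones 43 and 53 (DKO), with 1 IgG–IgG from WT clone 57. DPPA2 and DPPA4 are epigenetic priming factors that bind together at a subset of bivalent promoters. Each genotype rests on 2 clones, so clone and genotype differences can be weighed only by the spread between clones, and E14 cells and WT clones cannot be told apart from their sequencing batches. Biological replicates were taken at different passages and on separate days, per the methods of the study, and with 2 per group p-values rest on few libraries.

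Gata factors are zinc finger transcription factors that bind the sequence GATA, and each directs the formation of particular lineages. Gata2 acts in blood stem and progenitor cells and Gata3 in T cells, and both act in trophoblast. Gata4, Gata5 and Gata6 act in heart and endoderm, and Gata6 and Gata4 can drive ESCs towards primitive endoderm. In undifferentiated ESCs such lineage genes are largely silent, and many of their promoters are known to be bivalent, carrying both marks on the same nucleosome. No expression was measured here, and in bulk chromatin a low level in all cells and a high level in some of them cannot be told apart. Gata1, which lies on the X chromosome, was outside the set.

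Most bivalent promoters lie in sequence dense in CG dinucleotides. The RefSeq table (GRCm38.p6) held the 250 bases before 4 start sites of Gata2, Gata3 and Gata5, and these are shown so that the CG content beneath the signal can be read directly. Gata2 has 2 start sites, 4773 bp apart, at position 88193891 (upstream) and at 88198664 (downstream). Each window is written 5′ to 3′ on the strand of the gene, with CG in capitals.
Gata2 upstream, chr6:88193641-88193890, plus strand: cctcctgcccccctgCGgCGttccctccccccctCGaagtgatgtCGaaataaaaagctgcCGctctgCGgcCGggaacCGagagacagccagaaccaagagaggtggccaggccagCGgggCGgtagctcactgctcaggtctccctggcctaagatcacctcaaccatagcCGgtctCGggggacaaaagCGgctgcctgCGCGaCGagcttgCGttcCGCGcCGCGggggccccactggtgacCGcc
Gata2 downstream, chr6:88198414-88198663, plus strand: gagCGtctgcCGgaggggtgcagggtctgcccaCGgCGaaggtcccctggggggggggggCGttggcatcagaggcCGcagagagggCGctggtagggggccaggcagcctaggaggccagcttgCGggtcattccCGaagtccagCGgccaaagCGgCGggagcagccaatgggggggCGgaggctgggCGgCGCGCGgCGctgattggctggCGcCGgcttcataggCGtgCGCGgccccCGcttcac
Gata3, chr2:9878601-9878850, minus strand: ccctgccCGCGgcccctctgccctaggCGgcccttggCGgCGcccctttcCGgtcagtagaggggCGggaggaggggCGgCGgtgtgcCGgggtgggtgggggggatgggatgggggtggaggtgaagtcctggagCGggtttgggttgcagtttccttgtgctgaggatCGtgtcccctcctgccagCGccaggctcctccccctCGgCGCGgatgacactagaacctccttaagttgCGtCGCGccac
Gata5, chr2:180334680-180334929, minus strand: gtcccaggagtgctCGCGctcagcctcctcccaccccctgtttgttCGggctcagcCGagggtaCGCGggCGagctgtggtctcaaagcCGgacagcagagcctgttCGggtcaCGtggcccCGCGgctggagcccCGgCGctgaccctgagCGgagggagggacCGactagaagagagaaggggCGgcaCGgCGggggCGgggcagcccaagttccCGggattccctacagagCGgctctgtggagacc
The windows hold 22, 24, 19 and 22 CG, where the median over 31396 autosomal promoter windows of that length was 6. As many or more were found in 15.3%, 12.3%, 20.3% and 15.3% of those windows. Forms of the Gata recognition sequence (the letters AGATAA or TGATAA, and the letters AGATAG or TGATAG) were searched on both strands. None lay in the 4 windows, and 26.4% of all windows held at least 1.

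In E14 cells all 5 genes were covered by a listed region in both reChIP tables, with the same coordinates in K4-K27 and K27-K4. On mm10 (GRCm38) these were chr6:88186201-88207800 for Gata2, chr2:9868801-9900150 for Gata3, chr14:63236401-63258600 for Gata4, chr2:180329251-180338850 for Gata5 and chr18:11045251-11058000 for Gata6. They were broad. Gata3 lay in 31.4 kb, Gata4 in 22.2 kb, Gata2 in 21.6 kb, Gata6 in 12.8 kb and Gata5 in 9.60 kb, against a median of 3000 bp over the 24540 regions of the K4-K27 table. Their widths stood at percentiles 93.5 to 99.8 of that table and 95.5 to 99.9 of the K27-K4 table. Over these whole regions the CG frequency was 3.42 per 100 bp at Gata6, 3.39 at Gata2, 2.47 at Gata3, 2.46 at Gata4 and 2.19 at Gata5, where the median over the regions common to both tables was 2.37.

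Levels were compared over the E14 reChIP regions, since every library has a value there. The E14 K4-K27 and K27-K4 tables share 21857 regions, termed shared regions here, and these give the background for every level. The values are log2 RPM per kb of region (reads scaled by library size and region length), and enrichment is the value minus that of the 1 IgG–IgG library of E14 (replicate 1) for both E14 replicates, and of WT clone 57 for the clones. In both reChIP orientations the Gata genes stood further above IgG–IgG than in either total, the totals being the noisier libraries per the study. Mean enrichment in K4-K27 (n = 2) was 3.27 at Gata6, 2.95 at Gata3, 2.80 at Gata4, 2.78 at Gata2 and 2.08 at Gata5. In K27-K4 it was 3.82 at Gata6, 3.23 at Gata3, 3.22 at Gata2, 3.15 at Gata4 and 2.48 at Gata5. As fold over IgG–IgG these ran from 4.22 to 9.63 in K4-K27 and from 5.58 to 14.1 in K27-K4. The members' E14 levels lay at percentiles 94.8 to 99.2 of the shared regions in K4-K27 and 89.7 to 97.9 in K27-K4.

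**Figure D1:**
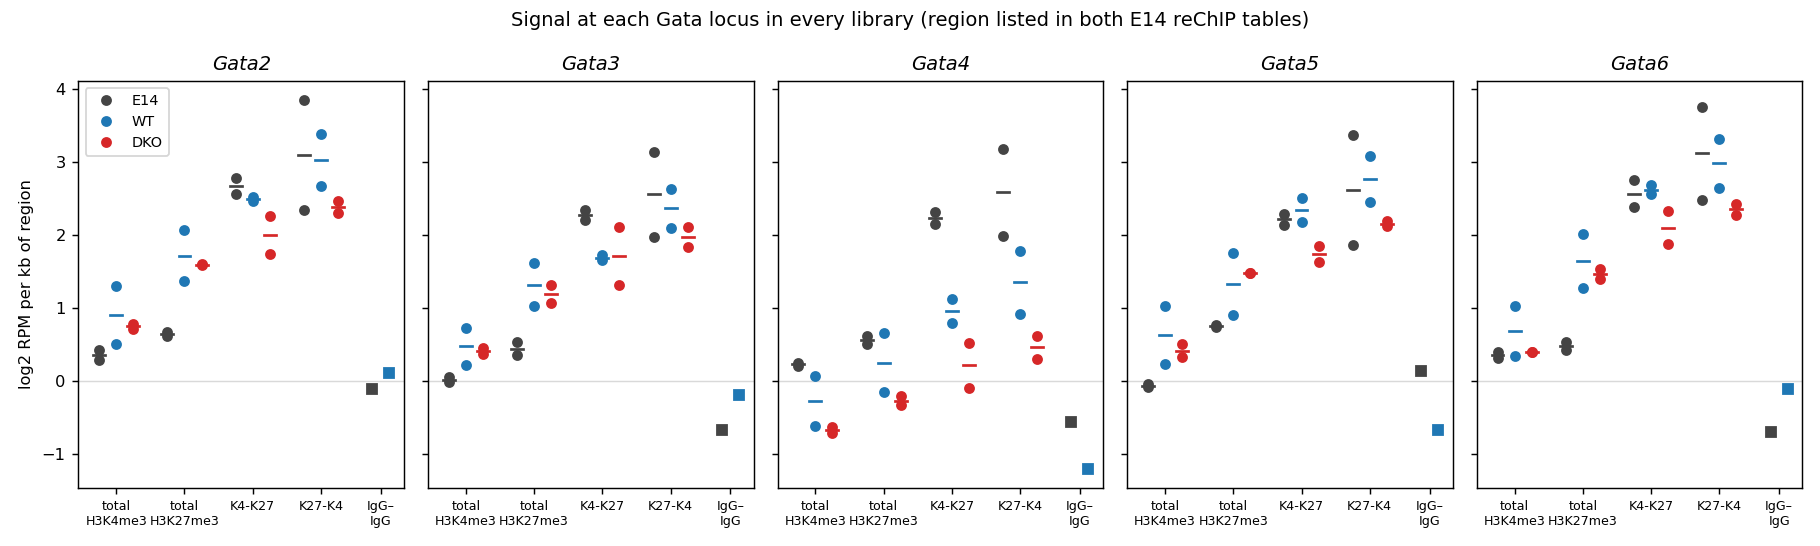
Signal at the 5 Gata genes in every library, as log2 RPM per kb of the E14 reChIP region. Circles are single libraries of E14 cells, WT clones and DKO clones, bars are means of 2, and squares are the single IgG–IgG libraries. Both reChIPs stand above both totals at each gene in E14 cells, K27-K4 replicates of E14 lie more than 1 log2 unit apart, and Gata4 sits lowest in the clones.

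Gata6, the factor that specifies primitive endoderm, was the most enriched over the E14 background, which rests on 69 reads there. Over the IgG–IgG of WT clone 57 Gata4 led instead, with 3.44 in E14 K4-K27 and 3.79 in K27-K4 beside 2.67 and 3.23 at Gata6. That background is itself low around Gata4, at -0.99 within 10 Mb relative to other autosomes, where the E14 background gave 0.02. In E14 replicates 1 and 2 Gata6 measured 2.38 and 2.75 by K4-K27 and 2.47 and 3.76 by K27-K4, over an IgG–IgG value of -0.70. Its H3K4me3 totals were 0.31 and 0.39, and its H3K27me3 totals 0.53 and 0.43. All 4 reChIP libraries therefore lay above all 4 totals, and the totals of both marks lay above the background.

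Gata2, a regulator of blood progenitors, had the highest plain level in 16 of the 24 ChIP and reChIP libraries of the series. Its E14 replicates measured 2.56 and 2.78 by K4-K27, then 2.35 and 3.85 by K27-K4. Total H3K4me3 was 0.42 and 0.29, total H3K27me3 0.67 and 0.61, and IgG–IgG -0.11. Gata3, the T cell factor, measured 2.21 and 2.34 by K4-K27, 1.98 and 3.13 by K27-K4, -0.02 and 0.06 in the H3K4me3 total and 0.35 and 0.53 in the H3K27me3 total. For both genes the reChIP and total libraries did not overlap.

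Gata4, a core factor of heart and endoderm, measured 2.14 and 2.32 by K4-K27, 1.99 and 3.18 by K27-K4, 0.24 and 0.21 in the H3K4me3 total and 0.61 and 0.51 in the H3K27me3 total. Gata5, which acts beside Gata4 and Gata6, measured 2.14 and 2.28 by K4-K27, then 1.86 and 3.37 by K27-K4. Gata5 differed in its totals. H3K27me3 reached 0.73 and 0.76, the highest of the 5 genes in both replicates, while H3K4me3 at -0.09 and -0.05 lay below the IgG–IgG value of 0.14. That background rests on 93 reads in the Gata5 region. Over the IgG–IgG of WT clone 57, with 90 reads there, E14 total H3K4me3 at Gata5 was 0.60 against background, where over the E14 background it was -0.20.

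The order of the genes within a library was largely kept between E14 replicates. In both K4-K27 libraries it was Gata2, Gata6, Gata3, Gata4 and Gata5 from high to low. Of neighbours in this order, only Gata6 and Gata3 were separated when values were compared across replicates. These levels average over regions of unlike width, 12.8 kb at Gata6 and 31.4 kb at Gata3. Inside the listed E14 H3K4me3 region K4-K27 gave 7.19 and 10.6 RPM per kb at Gata6 and 7.26 and 10.9 at Gata3. In both K27-K4 libraries Gata2 and Gata6 lay above the other three genes, and within each of these groups the order differed between replicates. Replicate 2 of K27-K4 exceeded replicate 1 by 1.15 to 1.51 log2 units at the members and by a median of 1.11 over all shared regions, from 47903462 and 6741244 reads, and the part of depth in this gap was not tested. In total H3K4me3 Gata2 and Gata6 changed places between replicates above Gata4, Gata3 and Gata5, in that order in both. In total H3K27me3 Gata5 and then Gata2 led in both replicates, and the order of the other three changed.

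The reChIP libraries of E14 were tested against the in-line totals, 4 libraries against 4, with limma over the shared regions. The 4 libraries of a side come from only 2 biological replicates and pool both orientations or both marks. The SEs and p-values of this test therefore do not measure the spread between biological replicates. Calls in this and later tests required a log2 difference over 1 and a Benjamini-Hochberg adjusted p under 0.05. All 5 Gata genes were higher in the reChIPs, by 2.43 at Gata6 (SE 0.35), 2.39 at Gata2 (0.36), 2.18 at Gata3 (0.34), 2.07 at Gata5 (0.40) and 2.01 at Gata4 (0.33), with limma adjusted p between 0.00357 and 0.00478. Of all shared regions 29.3% were called, every one higher, with a median difference of 1.18. The regions were listed because of reChIP signal, so a higher reChIP value is in part what placed them here. With each library centred on its median, only Gata6 was still called, at 1.29, beside 5.04% of shared regions. The remaining differences were 1.25 at Gata2, 1.05 at Gata3, 0.94 at Gata5 and 0.88 at Gata4.

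Which mark dominated the totals was asked by comparing total H3K4me3 with total H3K27me3 in E14. Averaged over the whole reChIP regions, H3K4me3 was the lower of the pair at all 5 genes. Over all shared regions it was higher by a median of 0.73. Differences were -0.81 at Gata5 (SE 0.15), -0.42 at Gata3, -0.33 at Gata4, -0.29 at Gata2 and -0.13 at Gata6. None of the 5 was called by limma, although 3 had an unadjusted p under 0.05, and 48.9% of shared regions were called (44.3% higher and 4.52% lower). Gata5 had an adjusted p of 0.000388, and its difference was below the threshold of 1. The Gata levels lay at percentiles 93.6 to 99.5 of shared regions for total H3K27me3 and at only 32.8 to 51.6 for total H3K4me3. Centred on library medians, Gata2, Gata3, Gata4 and Gata5 were called lower, at -1.15, -1.29, -1.20 and -1.68. Over all shared regions 31.9% were then called higher and 27% lower. All these comparisons average over broad reChIP regions. In the narrower listed E14 H3K4me3 regions, chosen by that mark, H3K4me3 was the higher at Gata2, Gata3, Gata4 and Gata6 in both replicates. In RPM per kb, H3K4me3 and H3K27me3 were 2.01 and 1.92 at Gata2 in replicate 1 and 2.00 and 1.62 in replicate 2. At Gata6 they were 1.91 and 1.47, then 1.88 and 1.31. Gata5 had no such region.

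**Figure D2:**
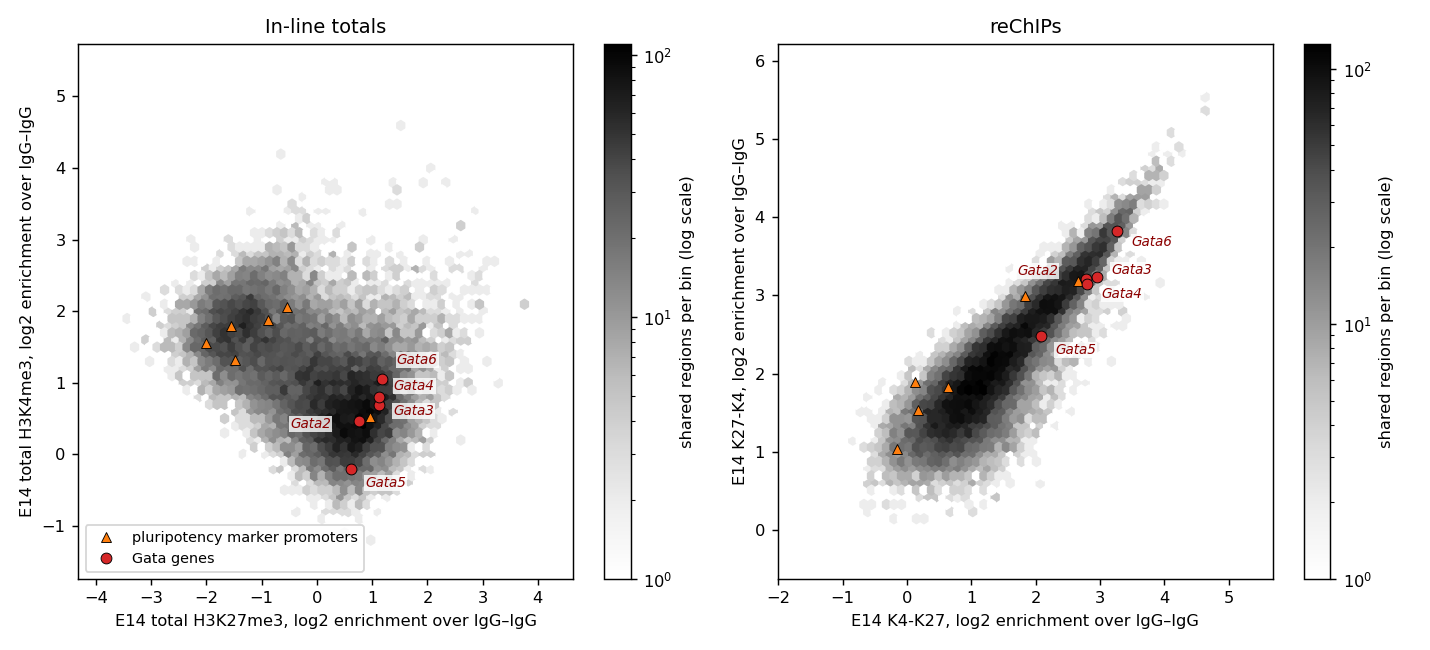
Enrichment in E14 cells relative to IgG–IgG for 21857 shared regions, as log2 means of 2 replicates, with total H3K4me3 against total H3K27me3 on the left and K27-K4 against K4-K27 on the right. Grey shows the number of regions on a log scale, circles the 5 Gata genes and triangles 6 pluripotency marker promoters. The Gata genes sit at high H3K27me3 and middling H3K4me3, towards the upper end of both reChIPs, and 5 of the 6 pluripotency promoters sit at high H3K4me3 and low H3K27me3.

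The listed regions placed the marks within each locus. The E14 total H3K4me3 regions were narrower than the reChIP regions and spanned the start site, at 5.85 kb for Gata6, 5.55 kb for Gata2, 4.80 kb for Gata4 and 3.45 kb for Gata3, and Gata5 had none. Within that table these were wide, at percentiles 80.9 to 96.5, its median width being 1950 bp. At Gata2 the H3K4me3 region in E14, WT and DKO tables covered the downstream start site and not the upstream one. Total H3K27me3 regions in E14 lay beside the start site at Gata3 (from 0.95 kb downstream) and at Gata4 (ending 1.18 kb upstream), and spanned it at Gata5. Gata2 and Gata6 had no E14 H3K27me3 region within 1.5 kb of a start site, although 1 and 2 such regions lay elsewhere inside their reChIP regions. A missing region says that none was listed, since at all 5 genes the reads of total H3K27me3 exceeded background.

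Reads inside the E14 H3K4me3 region (core) were compared with the rest of the reChIP region (flank) for the 4 genes that have one. As log2 ratios of reads per kb (means, n = 2), E14 K4-K27 gave 1.57 at Gata2, 1.36 at Gata4, 1.34 at Gata6 and 1.05 at Gata3. K27-K4 gave 1.75 at Gata6, 1.65 at Gata2, 1.64 at Gata4 and 1.42 at Gata3. Total H3K27me3 was nearly even across core and flank, at 0.27 at Gata4, 0.24 at Gata2, -0.01 at Gata6 and -0.21 at Gata3. IgG–IgG was itself above 0, between 0.38 and 0.93, so the core concentration of the reChIPs exceeded a background that was also uneven, and total H3K27me3 fell below it at all 4 genes. The clones differed in this. Total H3K27me3 was higher in the core than in the flank at all 4 genes, by 1.05 in WT and 0.89 in DKO at Gata2, 0.85 and 1.39 at Gata4, 0.43 and 0.71 at Gata6 and 0.42 and 0.31 at Gata3. The IgG–IgG of WT clone 57 gave 0.17, -1.24, 0.91 and 0.77 at the same genes in turn, so only Gata2 and Gata4 exceeded the background ratio there. That ratio at Gata4 rests on 15 core reads. Against the E14 IgG–IgG ratios of 0.93, 0.86, 0.70 and 0.38, WT was higher at Gata2 and Gata3, and DKO at Gata4 and Gata6. The core was chosen by total H3K4me3, and these ratios are descriptions without a test.

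**Figure D3:**
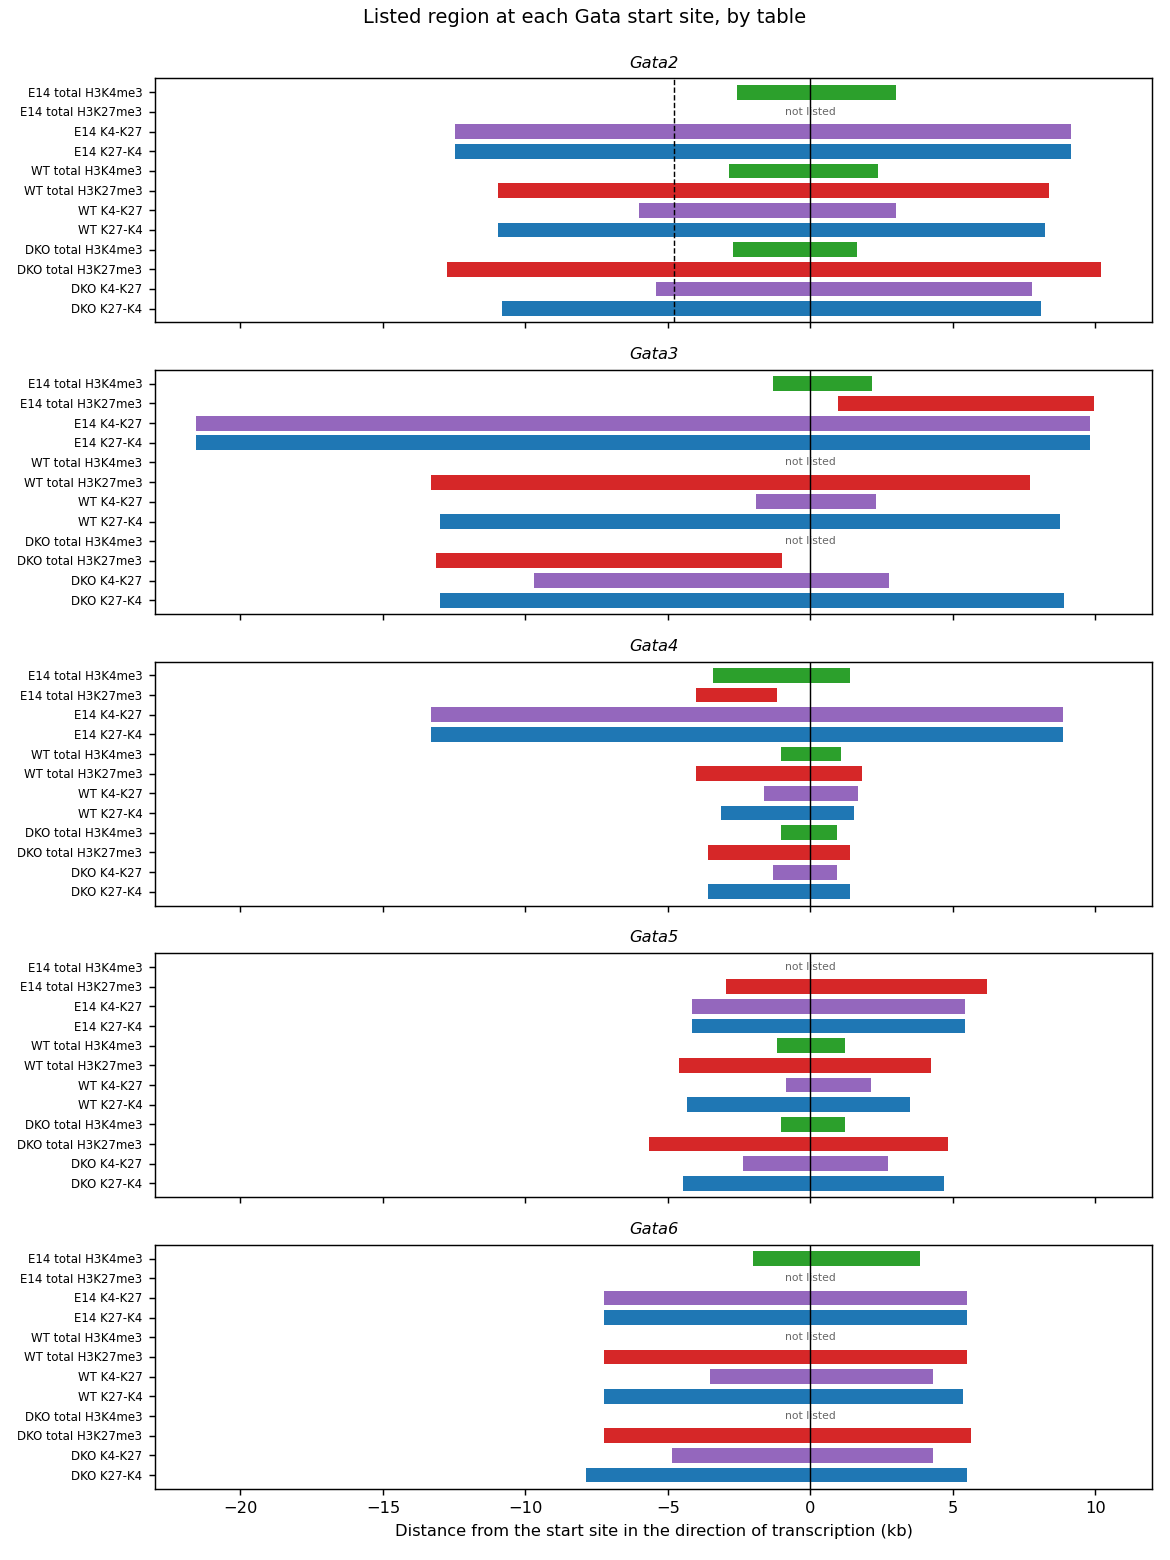
Listed region of each Gata gene in the 12 tables, drawn by distance in kb from the start site (solid line at 0) in the direction of transcription. The dashed line marks the upstream start site of Gata2, distances there being from the downstream one. H3K4me3 regions span the start site and E14 reChIP regions are broader than E14 total regions at each gene. The Gata4 reChIP regions are shorter in the clone tables than in those of E14.

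In the clone tables, K4-K27 regions were narrower than K27-K4 regions at each gene. WT K4-K27 regions spanned 9 kb at Gata2, 7.80 kb at Gata6, 4.2 kb at Gata3, 3.30 kb at Gata4 and 3.00 kb at Gata5. WT K27-K4 regions spanned 21.8 kb at Gata3, 19.2 kb at Gata2, 12.6 kb at Gata6, 7.80 kb at Gata5 and 4.65 kb at Gata4, close to the WT total H3K27me3 regions of 21.0, 19.4, 12.8, 8.85 and 5.85 kb at the same genes in turn. The DKO K4-K27 region was wider than the WT one at Gata3 (12.4 kb), Gata2 (13.2 kb), Gata5 (5.10 kb) and Gata6 (9.15 kb) and narrower at Gata4 (2.25 kb). Widths depend on how regions were called, and carry no test.

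The order of the antibodies was compared next. In E14, K27-K4 exceeded K4-K27 at every Gata gene by 0.28 to 0.55 (SE 0.93 to 0.97), below the median of 0.70 over all shared regions, and fell below it at every one (-0.40 to -0.13) with libraries centred on their medians. Without K27-K4 replicate 2 the sign turned at all 5 as well, to between -0.35 and -0.091. None of the 5 was called by limma, with none at an unadjusted p under 0.05, and 0% of shared regions were called, 55 having an unadjusted p under 0.05. With the replicate number as a block, 1523 shared regions passed, in each case with K27-K4 above K4-K27, and still no Gata gene, with adjusted p from 0.581 to 0.721. In WT clones the Gata genes were again higher in K27-K4, by 0.68 at Gata3, 0.54 at Gata2, 0.43 at Gata5, 0.40 at Gata4 and 0.36 at Gata6 (SE 0.52 to 0.62). None was called, while 31% of shared regions were (1.32% higher and 29.7% lower), and the median over all was -0.23. The Gata differences thus lay at percentiles 72.8 to 84.0 of shared regions. Centring on library medians shifted the median of all regions to 0.76 and brought all 5 Gata genes past the threshold, at 1.35 to 1.66. In that setting 33.8% of shared regions were called higher and 21.1% lower, so these calls rest on the scaling between libraries.

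This placed the Gata genes differently in the clones for the 2 orientations. Their WT levels lay at percentiles 42.9 to 82.8 of shared regions in K4-K27 and 77.3 to 97.7 in K27-K4, where E14 levels had been near the top in both. The shared regions were chosen by E14 reChIP signal. In log2 value, WT K4-K27 differed from E14 by -0.18 at Gata2, -0.58 at Gata3, -1.28 at Gata4, 0.12 at Gata5 and 0.06 at Gata6. Their H3K27me3 percentiles in WT were 72.5 to 99.8, with Gata4 lowest. The balance of the totals in WT clones repeated the sign seen in E14, with differences (H3K4me3 minus H3K27me3) of -0.96 at Gata6, -0.84 at Gata3, -0.81 at Gata2, -0.70 at Gata5 and -0.53 at Gata4 (SE 0.60 to 0.78). None of these 5 was called (limma, none at an unadjusted p under 0.05), beside 44.2% of shared regions (41.2% higher and 2.95% lower). The median over all shared regions was 0.96 in the other direction. On centred libraries all 5 genes were called lower, beside 35.7% of shared regions called lower and 33.8% higher.

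Between WT clones and E14 no Gata gene was called in any ChIP. In K4-K27, 0 of 5 were called by limma, with none at an unadjusted p under 0.05, beside 0% of 24540 regions, of which 5905 had an unadjusted p under 0.05. That share was 25.8% without E14 replicate 2 and 6.14% without WT clone 58. In K27-K4, 0 of 5 were called beside 0.0552% of 36235 regions (28.6% without E14 replicate 1), and none had an unadjusted p under 0.05. In total H3K4me3, 0 of 4 were called beside 0% of 21970 regions, a share of 66.1% without WT clone 58, and in total H3K27me3, 0 of 3 beside 5.14% of 21527 (0.446% higher and 4.69% lower), a share that was 0% without E14 replicate 1 and with libraries centred. The widest differences were at Gata4, at -1.28 in K4-K27 (SE 0.71, adjusted p = 0.283) and -1.23 in K27-K4 (SE 0.87, adjusted p = 0.404). Without E14 K27-K4 replicate 1 the latter was -1.83 with an adjusted p of 0.0365 by limma, which is a call, beside 28.6% of regions called in that setting. Gata2 and Gata6 had no E14 H3K27me3 region to test, and over the reChIP regions their total H3K27me3 was 1.07 and 1.17 higher in WT than in E14. Of the genes tested, Gata3 was 0.82 higher in total H3K27me3 (SE 0.41, unadjusted p = 0.0474, adjusted p = 0.217), and without WT clone 58 it was called at 1.05, as was Gata5 at 1.00, beside 7.35% of regions called higher in that setting. Without WT clone 58 total H3K4me3 was called higher at Gata2 (1.27) and Gata3 (1.15). Simulated shifts of 3 log2 units were recovered in 0.5% of regions for K4-K27, 15.5% for K27-K4, 40% for total H3K4me3 and 95% for total H3K27me3, so in the reChIPs a missing call says little.

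Gata4 stood apart in the clones. It was the lowest of the 5 genes in all 16 ChIP and reChIP libraries of the clones and in none of the 8 of E14, and in each clone group its clones were separated from the next gene. In K27-K4 its values were 1.77 and 0.92 in WT clones 57 and 58 and 0.61 and 0.31 in DKO clones 43 and 53, against 1.99 and 3.18 in E14. In K4-K27 they were 1.12 and 0.79 in WT and 0.53 and -0.10 in DKO, against 2.14 and 2.32. Its listed K27-K4 region spanned 22.2 kb in E14, 4.65 kb in WT and 4.95 kb in DKO, and its total H3K27me3 region 2.85, 5.85 and 4.95 kb.

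The lower level was not particular to the Gata4 promoter. The 273 regions of the E14 K4-K27 table within 10 Mb of Gata4 had medians that differed from those of other autosomes by -1.22 to -0.51 in the 16 ChIP and reChIP libraries of the clones, and by -0.09 to 0.12 in those of E14. The IgG–IgG of WT clone 57 showed -0.99 there and that of E14 0.02. The surroundings of Gata2, Gata3, Gata5 and Gata6 gave clone medians of 0.01 to 0.27, with single clone libraries from -0.41 (Gata6) to 0.93 (Gata2). Over chromosome 14 from 40 to 90 Mb, which holds Gata4, the 17 clone libraries differed from other autosomes by a median of -1.05 (-1.18 to -0.90), and the 9 E14 libraries by -0.15 to -0.01. Measured against the IgG–IgG of its own cells, the difference of WT from E14 at Gata4 was -0.64 in K4-K27 and -0.59 in K27-K4. By that measure Gata4 lay within the range of the other genes, at -1.07 and -0.67 for Gata3, -0.54 and -0.73 for Gata6, -0.40 and -0.29 for Gata2 and 0.93 and 0.96 for Gata5. Its totals over background were higher in WT, by 0.14 for H3K4me3 and 0.33 for H3K27me3. The chromosome 14 interval was chosen after its values were seen.

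**Figure D4:**
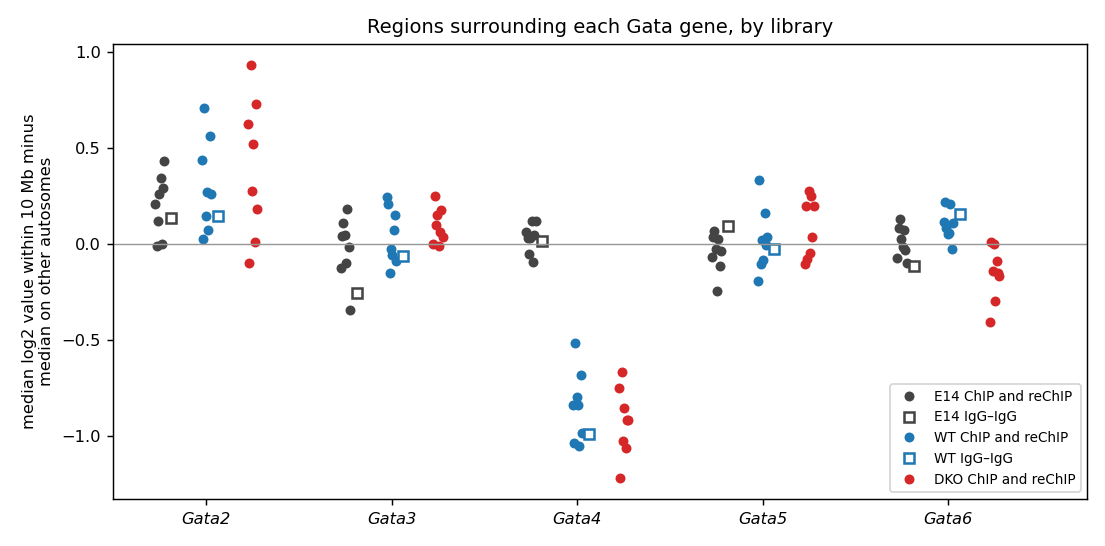
Median log2 value of the E14 K4-K27 regions within 10 Mb of each Gata gene minus the median on other autosomes, 1 point per library. Circles are ChIP and reChIP libraries of E14 cells, WT clones and DKO clones, and squares are IgG–IgG. Around Gata4 all clone libraries, IgG–IgG included, lie between -1.22 and -0.51, and E14 libraries near 0.

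The question of the knockout was whether the Gata promoters depend on DPPA2/4. In K4-K27, 0 of 5 Gata genes were called by limma between DKO and WT clones, with none at an unadjusted p under 0.05, beside 2.06% of 37723 regions (0.0928% higher and 1.96% lower, turning to 699 regions higher and 507 lower without DKO clone 43 and to 369 and 394 without DKO clone 53, with 344 and 860 without WT clone 57). In K27-K4 0 of 5 were called beside 1.44% of 46737 regions, all of them lower. That one direction did not hold without WT clone 57 (589 higher and 387 lower) or WT clone 58 (1706 and 2072). In total H3K4me3 0 of 3 were called beside 4.57% of 43065 (0.52% higher and 4.05% lower, turning to 1676 regions higher and 682 lower without WT clone 57), and in total H3K27me3 0 of 5 beside 0.416% of 43057 (0.0163% higher and 0.399% lower, turning to 885 regions higher and 187 lower without WT clone 57). No Gata gene had an unadjusted p under 0.05 in any of these. These tests used the regions listed for the clones, and Gata3 and Gata6 had none for total H3K4me3. The K4-K27 differences were -0.86 at Gata5, -0.59 at Gata2, -0.54 at Gata6, -0.43 at Gata4 and 0.09 at Gata3 (SE 0.59 to 0.64, adjusted p 0.445 to 0.966). The K27-K4 differences were -0.67 at Gata5, -0.65 at Gata2, -0.63 at Gata6, -0.59 at Gata4 and -0.34 at Gata3 (SE 0.46 to 0.49, adjusted p 0.395 to 0.649).

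The 95% intervals of the reChIP differences reached from -2.10 to 1.26 in K4-K27 and from -1.69 to 0.64 in K27-K4, so a fall of more than 1 log2 unit lies within them. Totals moved less in H3K27me3, from -0.27 at Gata4 to 0.16 at Gata5, and total H3K4me3 gave -0.45 at Gata5, -0.28 at Gata2 and 0.35 at Gata4. Each Gata difference in the totals changed sign with 1 clone left out, for example between -0.70 and 0.17 for H3K27me3 at Gata4. The direction of the K27-K4 differences was lower in DKO at 5 of 5 genes in each of the 9 alternative settings, and that of K4-K27 at 4 of 5. Gata3 turned sign in K4-K27 without WT clone 58 (-0.078) and without DKO clone 43 (-0.36). Medians over all regions tested were -0.01 in K4-K27 and -0.19 in K27-K4. Of simulated shifts of 3 log2 units, 32.5% were recovered in K4-K27, 23% in K27-K4, 48% in total H3K4me3 and 83.5% in total H3K27me3.

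**Figure D5:**
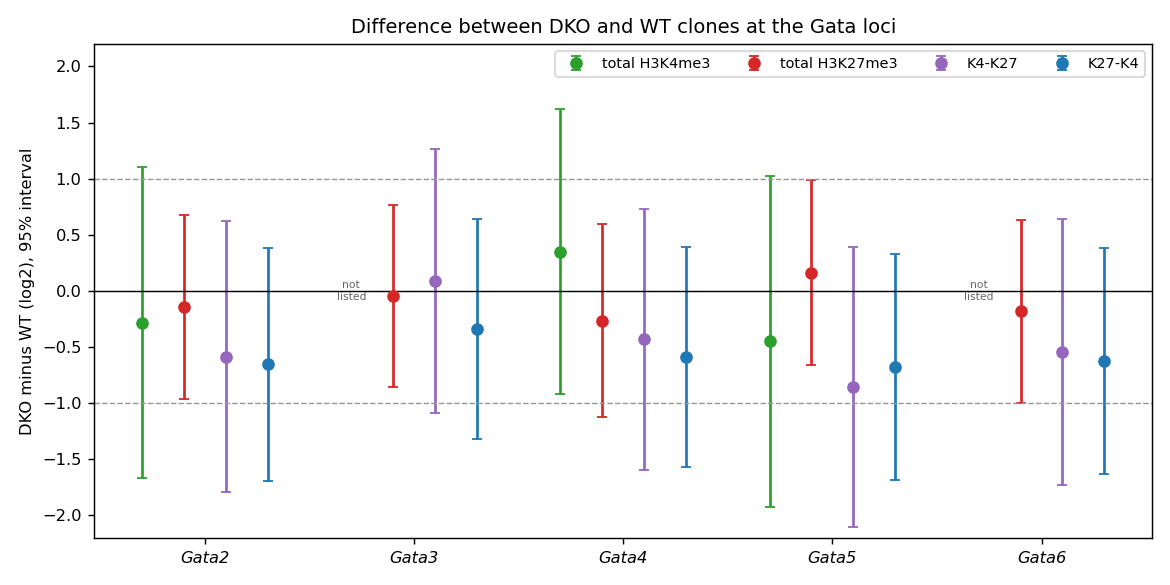
Difference between DKO and WT clones at each Gata gene in log2 units, 2 clones per genotype, over regions listed for the clones. Points are limma estimates, bars 95% intervals, and dashed lines mark a difference of 1 in either direction. Every interval includes 0, and 9 of the 10 reChIP estimates lie below 0.

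Over the E14 reChIP regions, both DKO clones lay below both WT clones at 4 of 5 Gata genes in K4-K27, as did 23.1% of all shared regions, and at 4 of 5 in K27-K4, as did 28.2%. In each orientation the exception was Gata3, whose clones overlapped. Over the regions listed for WT clones Gata4 overlapped as well, in each orientation. By K4-K27 it was at 2.81 and 2.07 in WT and 2.38 and 1.64 in DKO. By K27-K4 it was at 2.95 and 2.00 in WT and 2.16 and 1.60 in DKO. No Gata gene had both DKO clones above both WT clones, which held for 10.3% of shared regions in K4-K27, 18% in K27-K4, 3.59% in total H3K4me3 and 19.2% in total H3K27me3. Gata2 in K27-K4 was 3.39 and 2.67 in WT clones 57 and 58 and 2.47 and 2.30 in DKO clones 43 and 53. Gata6 in K27-K4 was 3.31 and 2.65 in WT and 2.43 and 2.28 in DKO, and in K4-K27 2.68 and 2.56 in WT and 2.33 and 1.87 in DKO. In K27-K4 the WT clones lay further from each other at both genes than the lower WT clone lay from the higher DKO clone, and in K4-K27 at Gata6 they lay closer.

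Gata5 in K4-K27 was 2.50 and 2.17 in WT and 1.85 and 1.62 in DKO. Gata3 in K4-K27 was 1.65 and 1.72 in WT and 2.10 and 1.32 in DKO, so its DKO clones lay on either side of WT. In the totals over the E14 reChIP regions only Gata4 had both DKO clones below both WT clones, for H3K4me3 (beside 24.4% of shared regions) and for H3K27me3 (beside 17.7%). Over its own WT H3K4me3 region the clones overlapped, at 1.76 and 0.70 in WT and 1.66 and 1.51 in DKO, and so they did over its own WT H3K27me3 region, at 1.18 and 0.31 in WT and 0.53 and 0.43 in DKO. Its surroundings were alike in the genotypes, with medians of -0.84 in WT and -0.91 in DKO.

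The clones of a genotype also differed. Clone 58 lay below clone 57 at all 5 Gata genes in total H3K4me3, total H3K27me3 and K27-K4, with median differences of -0.69, -0.74 and -0.67. Over all shared regions these medians were -1.01, -0.29 and -0.36. The DKO clones were closer in K27-K4, where clone 53 differed from clone 43 by -0.30 to -0.07, while in K4-K27 clone 53 was lower at all 5, by differences of -0.79 to -0.23.

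Genes that act with or beneath Gata factors, in lists chosen with earlier results known, gave a setting for these values. Heart genes resembled the Gata genes in E14, with a median enrichment of 2.81 in K4-K27, 3.21 in K27-K4, 0.77 in total H3K4me3 and 1.09 in total H3K27me3 over 8 of 10 genes listed, beside 2.80, 3.22, 0.70 and 1.12 for the Gata genes. Primitive endoderm and endoderm genes gave 2.84, 3.43, 1.03 and 1.00 over 12 of 16. Trophoblast genes gave 2.31, 2.88, 0.79 and 0.61 over 10 of 10, and blood and T cell genes 1.70, 2.10, 0.42 and 0.61 over 9 of 12. All regions of the E14 K4-K27 table gave medians of 1.44, 1.97, 1.01 and 0.31.

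Single genes spread widely within the lists. The highest and lowest K4-K27 enrichments were 3.27 at Tbx20 and 1.16 at Myl7 among heart genes, a cardiac transcription factor and a myosin light chain. Among endoderm genes they were 3.19 at Sox17, a transcription factor, and 1.86 at Lama1, which encodes a laminin of the basement membrane. Tfap2a and Elf5, both transcription factors, gave 2.88 and 1.09 in the trophoblast list, and Runx1, a transcription factor of blood formation, was highest in the blood and T cell list at 2.93.

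Cofactors and related zinc finger genes also divided. Zfpm2, a partner of Gata4 in heart, had 3.00 in K4-K27 with 0.91 in total H3K27me3 and 0.92 in total H3K4me3. Ldb1, a widely expressed adaptor in Gata complexes, had -0.06 in K4-K27 with -2.07 in total H3K27me3 and 1.54 in total H3K4me3. Pluripotency marker promoters, active in ESCs, gave medians of 0.40 in K4-K27, 1.86 in K27-K4, -1.18 in total H3K27me3 and 1.68 in total H3K4me3 over 6 of 8 listed. Pou5f1, which encodes OCT4, was lowest in K4-K27 at -0.16. Esrrb was highest at 2.65, with 0.96 in total H3K27me3.

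Counts of calls in these lists followed the same lines. Against the totals, the E14 reChIPs were higher at 12 of 12 endoderm (in 11 regions), 8 of 8 heart, 9 of 10 trophoblast, 5 of 9 blood and T cell, 5 of 10 cofactor and 1 of 6 pluripotency genes, beside 29.3% of all shared regions, a count that fell from 6404 to 1101 with libraries centred. Between DKO and WT, the only list gene called was Amn, which encodes a subunit of the endocytic receptor of visceral endoderm and gut, beside 1.96% of regions called lower in K4-K27 and 4.05% in total H3K4me3. Amn fell by 2.76 in K4-K27 (SE 0.65, limma adjusted p = 0.0031) and by 1.93 in total H3K4me3 (SE 0.55, adjusted p = 0.0169), and gave -0.67 in K27-K4 (adjusted p = 0.427). Between WT and E14, total H3K27me3 was called higher at Lyl1, a blood transcription factor related to Tal1 (1.39), and at Foxa2, an endoderm factor (1.34), with a limma adjusted p of 0.0467 each. With libraries centred, and without E14 replicate 1, that comparison had 0 calls, these genes included. In the WT orientation K27-K4 was called lower than K4-K27 at 4 of 10 cofactor genes (Ldb1, Trps1, Gatad1 and Gatad2a) and 4 of 6 pluripotency genes (Pou5f1, Sox2, Tdgf1 and Tfcp2l1), beside 29.7% of all shared regions. These calls are on the deposited scale, and with libraries centred 7397 shared regions were called higher and 4603 lower. The promoters of Dppa2 and Dppa4 were not called, at 0.37 and 0.08 in total H3K4me3, and a promoter mark does not check a deletion within the gene.

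Genes most like each Gata gene were sought among 12161 regions at start sites, as the smallest root mean square difference of log2 values over the 24 ChIP and reChIP libraries. Gata6 was closest to Isl2, at 0.114, Pax5 and Nkx2-2, and Gata2 to the region of Mir9-3, at 0.117, Isl2 and Emx1. Gata3 was closest to Dlx4, at 0.153, Msx1 and Pax6, and Gata5 to Sdc3, at 0.156, Vax1 and Car15. Medians over all regions were 1.53 to 1.79. Gata4 was closest to a region shared by Bmp1, Lgi3 and Sftpc, at 0.248, Sorbs3 and Sox7, all on chromosome 14 between 40 and 90 Mb. Among the Gata genes the closest pair was Gata2 and Gata6, at 0.158, and the libraries share cells, batches and region widths, so these distances are descriptions.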

How the data were processed

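Processed files of 26 ChIP and reChIP libraries were used. The authors trimmed reads with Trim Galore 0.6.6, aligned them to mm10 (GRCm38.p6) with BWA 0.7.13, handled alignments with SAMtools 1.9 and Picard 2.6.0, and quantified regions in SeqMonk, per the labels and the methods of the study. The deposited values are log2 RPM per kb of region, from alignments of sufficient mapping quality, with duplicates kept, no IgG–IgG subtraction, and 0 reads entered as 0.9 reads. Per the methods of the study, peaks were called with EPIC2 in each replicate against IgG–IgG and intersected, so signal over IgG–IgG may in part have selected the regions. The processing notes also name MACS2, and which settings gave the deposited tables is not settled here. Starts and widths of all listed regions are multiples of 150 bp, which differs from the bin size stated. Between 6741244 and 47903462 reads (median 16875026) stood behind a library's values, recovered from their steps, which were whole reads within a tolerance of 0.02 for 100% of values. Intervals from reads would cover counting error only and none is given. The tables also hold 32 columns of no sample of the series, which were not used.

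Libraries were grouped by labels and column names. Regions were tested with limma 3.58.1 in R 4.3.3 (variance trend, robust estimation), with Benjamini-Hochberg adjustment over all regions of a table and calls at an absolute log2 difference over 1 and an adjusted p under 0.05. Comparisons of DKO with WT used the WT regions plus non-overlapping DKO regions. Count tests foreseen for counts were not run, since the files hold log2 values. Tables were made with Python 3.11.15, numpy 2.4.6, pandas 2.3.3 and matplotlib 3.10.9. Tested on simulated data with 200 regions shifted by 3 log2 units in each of 13 comparisons, the fits called between 0.5% and 95% of shifted regions.

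E14 libraries with the same replicate number share a sequencing batch, and libraries of a clone share cells, so both kinds of number pair the libraries. Correlations of the deviations from group means within such pairs lay between -0.215 and 0.576 over the shared regions. Fits without the pairing are reported. Genes named beside the Gata genes were, of each list, called genes (at most 5) and those highest and lowest in K4-K27 enrichment, or the 3 genes most alike. The value of 1 list gene is not reported here. Calls of reChIPs against totals and of the balance are given as counts. The members and lists were chosen with earlier results of these data known. Alternatives covered centring, the variance model, a filter on low values, the regions tested, the pairing, each library left out, the promoter width and the IgG–IgG library.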

Additional observations from a re-analysis of the deposited data

How the results depend on the processing

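Precision was limited by 2 libraries per group, and every value below is a count of regions called by limma unless a gene is named. With libraries centred on their medians, the median of all regions moved by over 0.1 where it is given here, in DKO against WT for K27-K4 (-0.19 to 0.03) and in WT against E14 for K4-K27 (0.13 to -0.27). Counts changed from 1970 to 3870 in DKO against WT for total H3K4me3, from 179 to 0 for total H3K27me3, from 20 to 807 in WT against E14 for K27-K4 (median -0.82 to -0.03), from 0 to 894 for total H3K4me3 (0.82 to 0.01), from 1106 to 0 for total H3K27me3 (-0.30 to -0.03), from 6775 to 12000 in the WT orientation (289 higher and 6486 lower to 7397 and 4603, median -0.23 to 0.76), from 6404 to 1101 in reChIPs against totals (1.18 to 0.04) and from 9652 to 15206 in the WT balance (9007 higher and 645 lower to 7396 and 7810, 0.96 to -0.32). The E14 balance went from 9689 higher and 989 lower to 6979 and 5897 (0.73 to -0.13). Centred signs reversed in WT against E14 at Gata5 (-0.28) and Gata6 (-0.35) in K4-K27, at Gata2 (0.71), Gata3 (0.59) and Gata6 (0.65) in K27-K4 and at Gata2 (-0.018) and Gata6 (-0.35) in total H3K4me3, where Gata4 was called at -1.41. In the E14 orientation (0.70 to 0.02) they reversed at Gata2 (-0.25), Gata3 (-0.40), Gata4 (-0.33), Gata5 (-0.28) and Gata6 (-0.13). The causes were not tested.

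Without variance trend and robust estimation, DKO against WT gave 5111 in K4-K27 (2214 higher and 2897 lower, 35 and 741 reported), 439 in K27-K4 (238 and 201, none and 671 reported) and 390 in total H3K27me3 (178 and 212, 7 and 172 reported), and WT against E14 gave 1662 in K27-K4 and 192 in total H3K4me3. Without the lowest quartile of regions, DKO against WT gave 1046 in K27-K4, 559 in total H3K4me3 and 346 in total H3K27me3, and WT against E14 gave 324 in total H3K27me3. That filter dropped Gata4 for total H3K4me3 in WT against E14. On the regions of the E14 K4-K27 table, DKO against WT gave 2062 in K27-K4, 1047 in total H3K4me3 and 636 in total H3K27me3, and Gata4 reversed to -0.39 in total H3K4me3. On the regions of the DKO table alone, chosen after seeing the data, it gave 55 in K4-K27, 85 in K27-K4, 137 in total H3K4me3 (136 higher and 1 lower, 224 and 1746 reported) and 0 in total H3K27me3, and Gata3 reversed to 0.092 in total H3K27me3. With the replicate block the E14 orientation went from 0 to 1523, and the pairing changed no call of a Gata gene. Within 5 kb of start sites 55 gene and table pairs were found in place of 53, and the other IgG–IgG moved 50 of 60 enrichments by more than the spread between replicates.

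Leaving out 1 library at a time, where a lone library was assumed to vary like the other groups, moved DKO against WT between 763 and 1327 in K4-K27 (1204 without WT clone 57, 1327 without WT clone 58 and 1206 without DKO clone 43, of which 699 higher), between 558 and 3778 in K27-K4 (the latter without WT clone 58, 976 without WT clone 57, of which 589 higher), between 76 and 6428 in total H3K4me3 (76 and 100 without DKO clones 43 and 53, 6428 without WT clone 58) and between 140 and 1072 in total H3K27me3 (1072 and 706 without WT clones 57 and 58, of which 885 and 427 higher, 547 without DKO clone 53). WT against E14 moved between 0 and 6320 in K4-K27 (6320 without E14 replicate 2, 1506 without WT clone 58), between 1 and 10356 in K27-K4 (1 and 2 without WT clones 57 and 58, 10356 and 61 without E14 replicates 1 and 2), between 0 and 14529 in total H3K4me3 (the latter without WT clone 58) and between 0 and 2939 in total H3K27me3 (0 and 6 without E14 replicates 1 and 2, 2939 without WT clone 58). The WT orientation moved between 4470 (without K27-K4 of WT clone 58) and 8390, reChIPs against totals between 4051 and 8267 (4051 and 4152 without E14 H3K27me3 replicates 1 and 2) and the WT balance between 2009 and 12518 (2009 and 4563 without H3K27me3 of WT clones 57 and 58). The E14 orientation kept a count of 0.

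Among the Gata genes, 29 such differences changed sign, 226 did not change in sign or call and 5 became calls. In DKO against WT these were Gata3 in K4-K27 (-0.36 to 0.54), Gata2 (-0.78 to 0.21), Gata4 (-0.18 to 0.88) and Gata5 (-1.01 to 0.12) in total H3K4me3, and Gata2 (-0.50 to 0.22), Gata3 (-0.33 to 0.24), Gata4 (-0.70 to 0.17), Gata5 (-0.27 to 0.60) and Gata6 (-0.55 to 0.19) in total H3K27me3. In WT against E14 they were Gata5 (-0.041 to 0.29) and Gata6 (-0.13 to 0.24) in K4-K27, Gata2 (-0.83 to 0.68), Gata3 (-0.77 to 0.38), Gata5 (-0.60 to 0.91) and Gata6 (-0.78 to 0.51) in K27-K4, and Gata4 (-0.45 to 0.68) in total H3K27me3. In the E14 orientation all 5 turned sign without K27-K4 replicate 2 (Gata2 -0.32 to 1.19, Gata3 -0.29 to 0.86, Gata4 -0.24 to 0.94, Gata5 -0.35 to 1.16, Gata6 -0.091 to 1.20), and in the WT orientation Gata4 did (-0.031 to 0.82).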
